A study of Homo sapiens with 18 samples.

Results

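The genes ADM, NDRG1, SLC2A1, EGLN3, EGLN1, ANGPTL4, CA12, TGFA, DDIT4 and EPAS1 were examined as targets or parts of the hypoxia pathway that VHL controls. They were chosen by symbol, with earlier results of these data known, so the counts of called members below are a description and not a blind test. All 10 of the 10 symbols have a row among the 13141 genes of the array table. The cells were 786-O, an established clear cell renal cell carcinoma (ccRCC) line that lacks functional pVHL, the protein product of VHL. Both labels, VHL-/- and VHL+/+, name cells of this line, and the paper refers to the difference as VHL re-expression. Whether the VHL-/- cells carried an empty vector is not given, nor whether the VHL+/+ cells were a single derived line. Other differences between the lines therefore cannot be told apart from VHL. Cells of each label carried a stably expressed shRNA, which was a control sequence (SCR), PBRM1 shRNA or KDM5C shRNA. A single shRNA was used for each target gene, with no other treatment. The 6 groups held 3 Illumina HumanHT-12 arrays each, 18 in all. Replicates 1 and 2 of every group were on chip 1 and replicate 3 was on chip 2. The labels do not say that the replicates were separate cultures, so the p-values measure the spread between these samples, which may be technical.

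In cells with enough oxygen, prolyl hydroxylases of the EGLN family mark the α subunits of the hypoxia-inducible factors (HIF), and pVHL binds the marked protein and directs its destruction. Without pVHL the α subunits persist whatever the oxygen level, pair with ARNT and bind DNA at hypoxia response elements with the core letters ACGTG or GCGTG. In ccRCC, HIF2α, the product of EPAS1, is the subunit best known to drive growth, and 786-O cells are known for carrying HIF2α without HIF1α. The genes turned on in this way serve glucose uptake, acid export, blood vessel growth, lipid handling and growth factor signaling. PBRM1 is a subunit of the PBAF chromatin remodeling complex and KDM5C removes methyl groups from histone H3, and both genes are mutated in ccRCC.

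The promoter letters of these genes are shown first, because the core letters above are where HIF can bind. RefSeq windows on GRCh38.p14, which run from 250 bases before to 50 bases after a transcription start, were at hand for 9 of the 10 genes, and NDRG1 had none. TGFA had 2 windows. ACGTG or GCGTG, or their reverse complements CACGT and CACGC, stood in a window of 8 of these 9 genes, and before the start in 7 of them. Counted by window, 8 of the 10 windows of these genes (80%) held such letters and 7 (70%) held them before the start. Over all 35116 RefSeq windows of this length, 48.4% held such letters and 43.2% held them before the start, so a match is common. EGLN3 had no match in its window, and the single match of SLC2A1 lay after the start. The letters before the start are printed 5′ to 3′ on the gene's strand, with each match in capitals. ADM and DDIT4 are shown over all 250 bases, as both were called lower with VHL under every shRNA below. DDIT4 also held the most matches of the 9 genes with a window. The others are shown as the stretch around the match.
ADM, chr11:10304823-10305072, plus strand: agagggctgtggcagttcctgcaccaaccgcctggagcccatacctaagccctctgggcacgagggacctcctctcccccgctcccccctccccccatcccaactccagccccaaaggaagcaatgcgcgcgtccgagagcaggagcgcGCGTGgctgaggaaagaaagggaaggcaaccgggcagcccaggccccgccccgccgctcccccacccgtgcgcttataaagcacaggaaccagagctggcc
DDIT4, chr10:72273674-72273923, plus strand: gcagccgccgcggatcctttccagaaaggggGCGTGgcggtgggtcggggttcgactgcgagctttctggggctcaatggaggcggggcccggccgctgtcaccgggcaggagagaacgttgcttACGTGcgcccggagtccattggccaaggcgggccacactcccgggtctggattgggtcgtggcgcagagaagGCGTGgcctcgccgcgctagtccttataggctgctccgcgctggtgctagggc
CA12, chr15:63382046-63382096, minus strand: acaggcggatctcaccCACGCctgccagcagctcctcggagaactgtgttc
ANGPTL4, chr19:8363905-8363955, plus strand: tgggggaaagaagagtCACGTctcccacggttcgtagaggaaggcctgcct
TGFA, chr2:70553463-70553527, minus strand: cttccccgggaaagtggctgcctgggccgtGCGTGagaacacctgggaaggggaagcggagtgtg
EGLN1, chr1:231422288-231422330, minus strand: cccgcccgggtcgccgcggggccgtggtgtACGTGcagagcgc
EPAS1, chr2:46297260-46297324, plus strand: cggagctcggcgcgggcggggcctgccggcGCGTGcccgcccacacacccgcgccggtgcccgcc
DDIT4 had 3 matches before its start and the other printed genes had 1 each. EPAS1 and EGLN1, which were not called in any VHL comparison below, held a match as well.

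All values are log2 signals that the authors deposited, background-corrected and quantile-normalized, with a gene's probes averaged into 1 row. The table ran from 6.27 to 14.66 with a median of 7.65. A signal ranks a gene among the others on these arrays and is not a transcript number, so levels were compared only within a gene. Across genes, which are no independent replicates, r between arrays of a group was 0.976 to 0.995. At adjusted p under 0.05, 3130 genes differed between the chips. Among the members the mean on chip 2 exceeded that on chip 1 by 1.61 for NDRG1, 1.16 for DDIT4, 0.61 for EPAS1 and 0.55 for ADM, on the log2 scale. Every group had the same split over the chips, so the chip cancels in a difference of group means, and a chip term was in the fit. Of the labelled targets, PBRM1 had -0.064 in VHL-/- and -0.15 in VHL+/+ cells with its shRNA against SCR on the log2 scale, neither past the test (adjusted p = 0.864 and 0.639, limma), and its 18 signals were 7.02 to 7.52. KDM5C was not analysed here, so the effect of KDM5C shRNA on its own target was not checked. VHL had 7.64 to 8.16 on the 18 arrays and 0.077 in VHL+/+ against VHL-/- cells (adjusted p = 0.394, limma), so neither PBRM1 nor VHL itself separated the labels on these arrays. PBRM1 lay at the 40.4 percentile of signal. The names PBRM1 shRNA, KDM5C shRNA, VHL-/- and VHL+/+ are therefore those of the labels throughout, also where a direction is given. Of the renal markers, VIM, CDH2, KRT8, CDH6 and PAX8 lay above the 66th percentile of signal, and KRT18 lay at the 41.1 percentile. The endothelial marker PECAM1 lay at the 11.1 percentile and the macrophage marker CD68 at the 68 percentile. CDH6, a kidney cadherin, was called higher in VHL+/+ cells under each shRNA (1.01 in the average of the 3, adjusted p = 9.58e-06, limma), and CD68 had -0.23 there (adjusted p = 0.0147, under 1.5-fold). Their part in the results below was not tested.

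The first question was whether the genes were lower where VHL was present, and whether that held under each shRNA. A gene was called at adjusted p under 0.05 (limma, Benjamini-Hochberg over all genes of the table) with a change of at least 1.5-fold. With SCR, 5 of the 10 genes were called lower in VHL+/+ than in VHL-/- cells (ADM, NDRG1, SLC2A1, CA12 and DDIT4), where 0.685% of all genes were called lower and 0.342% higher. With PBRM1 shRNA, 7 were called lower (the same 5 with EGLN3 and ANGPTL4), against 0.51% of all genes lower and 0.51% higher. With KDM5C shRNA, 8 were called lower (those 7 with TGFA), against 0.563% lower and 0.327% higher. None was called higher in any of these comparisons. In whole cultures a lower signal can mean less RNA per cell or fewer cells with the RNA, and these cannot be told apart. The median log2 change of the 10 genes was -0.74 with SCR, -0.91 with PBRM1 shRNA and -1.03 with KDM5C shRNA, where the median over all genes was between -0.00016 and 0.0042. Averaged over the 3 shRNAs, 9 arrays against 9, 7 were called lower against 0.586% of all genes, and 0.342% of all genes were called higher. With no fold threshold 9 passed the adjusted p in the average, where 6.17% of all genes passed and were lower. The 3 comparisons by shRNA share no array with each other. Without the chip term in the fit the 3 counts were 3, 3 and 5, and with any 1 of the 18 arrays left out they were 5 throughout with SCR, 6 to 8 with PBRM1 shRNA and 6 to 8 with KDM5C shRNA.

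Within a chip the separation could be read from the arrays themselves. For 7 genes, ADM, NDRG1, SLC2A1, EGLN3, ANGPTL4, CA12 and DDIT4, every VHL+/+ array lay below every VHL-/- array on chip 1 (6 against 6) and on chip 2 (3 against 3), whatever the shRNA. This held for 1.03% of all genes. Within one shRNA, all 3 VHL+/+ arrays lay below all 3 VHL-/- arrays for 7 genes with SCR (8.46% of all genes), 6 with PBRM1 shRNA (6.59%) and 9 with KDM5C shRNA (6.45%).

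**Figure D1:**
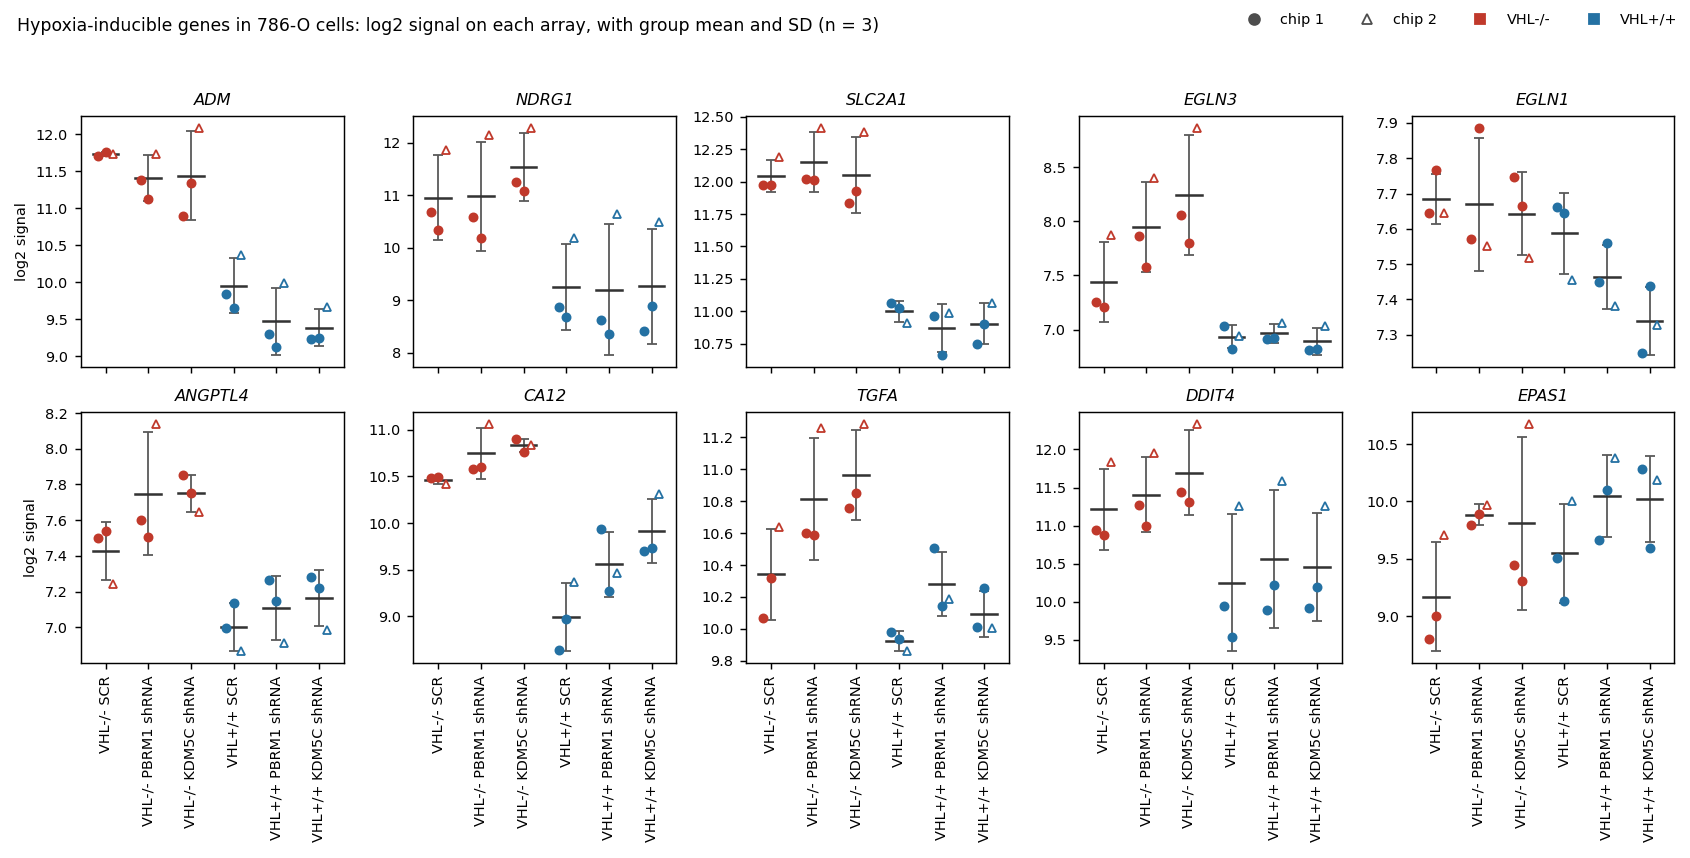
Log2 signal (vertical axis) of each of the 10 genes on every array, by group (horizontal axis), with red for VHL-/- and blue for VHL+/+ cells, filled circles for chip 1 and open triangles for chip 2. Horizontal bars are group means and error bars are SD (n = 3). In 7 panels every blue point of a chip lies below every red point of that chip, and in the EPAS1 panel the colors overlap.

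Among the genes for transport and acid handling, SLC2A1 encodes the glucose transporter GLUT1. Its signals were 11.97, 11.97 and 12.19 on the VHL-/- SCR arrays and 11.06, 11.02 and 10.91 on the VHL+/+ SCR arrays. The groups did not overlap, and the gap between them was larger than the spread within either. SLC2A1 fell by 1.05 ± 0.11 (SE) on the log2 scale, or 2.07-fold (adjusted p = 7.51e-05, limma). With PBRM1 shRNA the drop was 2.43-fold and with KDM5C shRNA 2.21-fold (adjusted p = 5.00e-06 and 1.91e-05, limma). Over all shRNAs the VHL-/- arrays of chip 1 had 11.83 to 12.02 with a median of 11.97 and the VHL+/+ arrays 10.66 to 11.06 with a median of 10.93. Across the groups the VHL-/- means were 12.05, 12.15 and 12.05 with SCR, PBRM1 and KDM5C shRNA, closer to each other than to any VHL+/+ mean.

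CA12, a carbonic anhydrase of the cell surface that helps export acid, had 10.48, 10.49 and 10.42 on the VHL-/- SCR arrays and 8.63, 8.97 and 9.37 on the VHL+/+ SCR arrays. All 3 VHL+/+ arrays were more than 1 log2 unit below the VHL-/- arrays. CA12 was 2.78-fold lower with VHL in SCR cells (-1.47 ± 0.18, adjusted p = 0.000228, limma). It was 2.29-fold lower with PBRM1 shRNA and 1.9-fold lower with KDM5C shRNA (adjusted p = 0.000971 and 0.00863, limma). The call with PBRM1 shRNA was lost when only the arrays of that comparison were fitted (adjusted p = 0.0701, limma). CA12 was the gene whose VHL+/+ means spread most by shRNA, at 8.99 ± 0.37 with SCR, 9.56 ± 0.35 with PBRM1 shRNA and 9.91 ± 0.34 with KDM5C shRNA (SD, n = 3 each).

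Among the secreted factors, ADM encodes adrenomedullin, a peptide that widens vessels and acts on endothelial cells. It had 11.71, 11.76 and 11.74 on the VHL-/- SCR arrays and 9.84, 9.65 and 10.37 on the VHL+/+ SCR arrays. The VHL-/- SCR arrays lay within 0.1 of each other, and the VHL+/+ arrays were all more than 1 unit lower. ADM fell by 1.78 ± 0.16 on the log2 scale with SCR, or 3.44-fold (adjusted p = 1.54e-05, limma). The drop was 3.84-fold with PBRM1 shRNA and 4.17-fold with KDM5C shRNA, and with any one of the 18 arrays left out the call held in all 3 comparisons. Averaged over the shRNAs it was -1.93 on the log2 scale with a 95% interval of -2.12 to -1.73, alongside NDRG1 (-1.92, interval -2.15 to -1.69) the largest of the 10.

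TGFA encodes a ligand of the epidermal growth factor receptor EGFR and is known as a growth signal that ccRCC cells make for themselves. Its signals were 10.07, 10.32 and 10.64 on the VHL-/- SCR arrays and 9.98, 9.94 and 9.86 on the VHL+/+ SCR arrays. The SCR groups did not overlap, but they were close on chip 1. The change with SCR was -0.42 on the log2 scale (interval -0.76 to -0.072, adjusted p = 0.206, limma) and was not called. With PBRM1 shRNA it was -0.54 (adjusted p = 0.106), also not called. Leaving out VHL+/+ PBRM1 shRNA replicate 1 brought it past the threshold (-0.69, adjusted p = 0.0424, limma). With KDM5C shRNA TGFA fell by 0.87 ± 0.16 (adjusted p = 0.00779, limma), from 10.76, 10.85 and 11.29 to 10.01, 10.26 and 10.01. This call was lost without VHL+/+ KDM5C shRNA replicate 3 (-0.74, adjusted p = 0.057, limma) and where only its own arrays were fitted (adjusted p = 0.0629, limma). In the average TGFA fell by 0.61 (adjusted p = 0.000362, limma), on chip 1 alone the value was -0.39 and on chip 2 alone -1.04, and without replicate 3 of any 1 of the 6 groups the value lay below the 1.5-fold threshold, at -0.58 to -0.55. EGFR, the receptor, had -0.21, -0.29 and -0.29 with SCR, PBRM1 and KDM5C shRNA on the same scale and was not called.

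ANGPTL4 encodes a secreted inhibitor of lipoprotein lipase that also acts on vessels. It had 7.50, 7.54 and 7.24 on the VHL-/- SCR arrays and 7.0, 7.14 and 6.87 on the VHL+/+ SCR arrays. Although these groups did not overlap, the change of -0.43 was not called (adjusted p = 0.122, limma). ANGPTL4 fell by 0.64 with PBRM1 shRNA and by 0.59 with KDM5C shRNA (adjusted p = 0.0212 and 0.033, limma), just past the threshold. The first call was lost without VHL-/- PBRM1 shRNA replicate 3 (-0.36), whose signal of 8.14 was the highest of all 18, and without VHL+/+ PBRM1 shRNA replicate 2 (-0.64) or 3 (-0.56). The second was lost without any 1 of its own 6 arrays (-0.63 to -0.52). Both were also lost where the chip was not fitted (adjusted p = 0.0788 and 0.088, limma), and the first where only its own arrays were (adjusted p = 0.226, limma). In the average, at -0.55 with an interval of -0.72 to -0.38 (adjusted p = 0.000252, limma), it passed the adjusted p and lay under the fold threshold. ANGPTL4 was a dim gene, at the 49.7 percentile of signal in VHL-/- and the 33.5 percentile in VHL+/+ cells.

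NDRG1 and DDIT4 belong to the stress response. NDRG1 encodes a cytoplasmic protein induced by hypoxia and differentiation and known as a suppressor of metastasis. It had 10.67, 10.33 and 11.86 on the VHL-/- SCR arrays and 8.88, 8.68 and 10.19 on the VHL+/+ SCR arrays. In both groups the chip 2 array was the highest by more than 1 unit, and within each chip the VHL+/+ arrays were the lower ones. NDRG1 fell 3.26-fold with SCR, 3.42-fold with PBRM1 shRNA and 4.86-fold with KDM5C shRNA (adjusted p = 0.000129, 5.06e-05 and 3.58e-06, limma). Over all shRNAs the VHL-/- arrays of chip 1 had 10.18 to 11.25 with a median of 10.63 and the VHL+/+ arrays 8.35 to 8.88 with a median of 8.65. On chip 2 they had 11.86 to 12.29 and 10.19 to 10.63. Without the chip term in the fit, NDRG1 was not called with SCR, PBRM1 or KDM5C shRNA (adjusted p = 0.347, 0.416 and 0.189, limma), as the chip difference then counts as spread.

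DDIT4, also called REDD1, encodes an inhibitor of mTORC1 signaling under low oxygen and other stress. Its signals were 10.94, 10.88 and 11.83 on the VHL-/- SCR arrays and 9.94, 9.54 and 11.26 on the VHL+/+ SCR arrays. The chip 2 arrays were again the highest, and the VHL+/+ chip 2 array overlapped the VHL-/- arrays of chip 1. DDIT4 fell 1.96-fold with SCR, 1.79-fold with PBRM1 shRNA and 2.36-fold with KDM5C shRNA (adjusted p = 0.00289, 0.00708 and 0.000335, limma). Of these calls, all 3 were lost without the chip term (adjusted p = 0.521, 0.714 and 0.407) and that with PBRM1 shRNA also when only its own arrays were fitted (adjusted p = 0.112, limma). On chip 1 alone the 3 log2 changes were -1.17, -1.08 and -1.32, and on chip 2 alone -0.57, -0.37 and -1.08.

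EGLN3 and EGLN1 encode 2 of the prolyl hydroxylases that mark HIF for pVHL, and both are themselves known as HIF targets, EGLN3 the more inducible. EGLN3 had 7.25, 7.21 and 7.87 on the VHL-/- SCR arrays and 7.03, 6.82 and 6.94 on the VHL+/+ SCR arrays. The groups did not overlap, but only the chip 2 array of VHL-/- SCR was clearly above the rest. With SCR the change was -0.51 (interval -0.84 to -0.18, adjusted p = 0.0977, limma) and not called. With PBRM1 shRNA EGLN3 fell by 0.98 ± 0.16, from 7.87, 7.58 and 8.40 to 6.91, 6.92 and 7.06 (adjusted p = 0.00202, limma). With KDM5C shRNA it fell by 1.35 ± 0.16, from 8.06, 7.80 and 8.87 to 6.81, 6.82 and 7.04 (adjusted p = 0.000142, limma). The 9 VHL+/+ arrays all lay between 6.81 and 7.06, and the 9 VHL-/- arrays between 7.21 and 8.87. In VHL+/+ cells EGLN3 was at the 26.7 percentile of signal, against the 54.9 percentile in VHL-/- cells. The call with PBRM1 shRNA was lost where the chip was not fitted (adjusted p = 0.103, limma).

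EGLN1, the main oxygen sensor of most cells, had 7.64, 7.77 and 7.64 on the VHL-/- SCR arrays and 7.66, 7.65 and 7.45 on the VHL+/+ SCR arrays. These groups overlapped. It was not called in any comparison, with changes of -0.10, -0.21 and -0.30 with SCR, PBRM1 and KDM5C shRNA. In the average it was -0.20 (interval -0.30 to -0.10, adjusted p = 0.0107, limma), past the adjusted p and well under 1.5-fold.

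EPAS1, the gene of HIF2α itself, was the exception among the 10, and the description of targets that are lower with VHL did not hold for it. It had 8.80, 9.0 and 9.71 on the VHL-/- SCR arrays and 9.51, 9.13 and 10.00 on the VHL+/+ SCR arrays. The groups overlapped across the chips, but within each chip the VHL+/+ SCR arrays were the higher ones. With PBRM1 or KDM5C shRNA the VHL+/+ and VHL-/- arrays overlapped also once the chip term was removed. EPAS1 was 0.38 in VHL+/+ against VHL-/- cells with SCR, 0.17 with PBRM1 shRNA and 0.21 with KDM5C shRNA (adjusted p = 0.443, 0.83 and 0.732, limma), and none of these was called. In the average the interval was -0.0094 to 0.51, which leaves out a 1.5-fold change in either direction. On these arrays the transcript of HIF2α was therefore not seen to be lower in VHL+/+ cells, while 7 of the other 9 genes were called lower in the average.

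**Figure D2:**
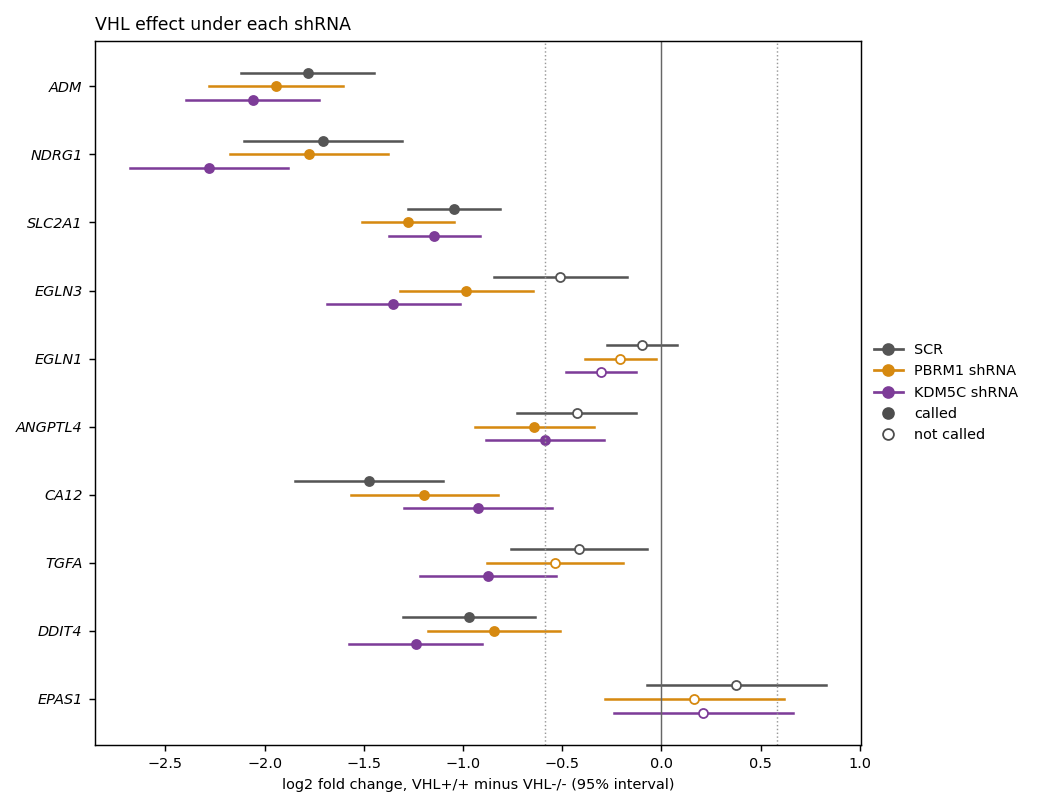
Log2 fold change of VHL+/+ over VHL-/- cells (horizontal axis) for each of the 10 genes (vertical axis) with SCR in gray, PBRM1 shRNA in orange and KDM5C shRNA in purple, with 95% intervals from limma. Filled points were called and dotted lines mark a 1.5-fold change. ADM, NDRG1, SLC2A1, CA12 and DDIT4 are filled under each of the 3 shRNAs, and EGLN1 and EPAS1 under none.

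Whether the VHL effect depended on the shRNA was tested as the difference between VHL effects. No member and no gene of the table passed the adjusted p for either shRNA against SCR (0% of all genes called in both tests). At an unadjusted p under 0.05, 0 members and 553 genes passed for PBRM1 shRNA, and 3 members and 1014 genes for KDM5C shRNA. The 3 were EGLN3 (-0.84 on the log2 scale, adjusted p = 0.354, limma), CA12 (0.55, adjusted p = 0.624, limma) and NDRG1 (-0.57, adjusted p = 0.641, limma). The 5, 7 and 8 calls above therefore do not show that the VHL effect reached more of these genes under either shRNA than with SCR.

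The second question was what the shRNAs did to the genes in each background. Both shRNA comparisons of a background share the 3 SCR arrays, so an odd SCR array would move both, and the VHL-/- SCR arrays also enter the VHL comparison with SCR. PBRM1 shRNA in VHL-/- cells called none of the 10 genes, where 0.89% of all genes were called lower and 0.921% higher (at an unadjusted p under 0.05, 4 members and 2381 of the 13141 genes passed). In VHL+/+ cells PBRM1 shRNA also called none, against 0.304% lower and 0.639% higher (4 members and 2007 genes at the unadjusted p). KDM5C shRNA in VHL-/- cells called 2 higher, EGLN3 and TGFA, against 0.654% of all genes lower and 0.807% higher (7 members and 2301 genes at the unadjusted p). In VHL+/+ cells it called 1 higher, CA12, against 0.426% lower and 0.715% higher (4 members and 2414 genes at the unadjusted p). No member was called lower in any of the 4 comparisons.

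EGLN3 rose by 0.80 ± 0.16 with KDM5C shRNA in VHL-/- cells (adjusted p = 0.00654, limma), from 7.25, 7.21 and 7.87 with SCR to 8.06, 7.80 and 8.87. The 2 chip 1 arrays with KDM5C shRNA were above both chip 1 SCR arrays, and the chip 2 array was above the chip 2 SCR array. With PBRM1 shRNA its value in VHL-/- cells was 0.50 (adjusted p = 0.0793, limma), not called. In VHL+/+ cells, where EGLN3 was dim (26.7 percentile of signal), the values were 0.032 and -0.043 with PBRM1 and KDM5C shRNA. The change of EGLN3 with either shRNA was not shown to differ between the backgrounds (for KDM5C shRNA adjusted p = 0.354, limma).

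TGFA rose by 0.62 ± 0.16 with KDM5C shRNA in VHL-/- cells (adjusted p = 0.0356, limma), from 10.07, 10.32 and 10.64 to 10.76, 10.85 and 11.29. Every KDM5C shRNA array exceeded every SCR array. The call was lost without VHL-/- SCR replicate 1 (0.52, adjusted p = 0.174) or 2 (0.65, adjusted p = 0.0899) and without VHL-/- KDM5C shRNA replicate 2 (0.65, adjusted p = 0.0709) or 3 (0.51, adjusted p = 0.136, limma). TGFA had 0.47 with PBRM1 shRNA in VHL-/- cells and 0.35 in VHL+/+ cells, neither called (adjusted p = 0.11 and 0.312, limma).

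CA12 rose by 0.92 ± 0.18 with KDM5C shRNA in VHL+/+ cells (adjusted p = 0.00772, limma), from 8.63, 8.97 and 9.37 to 9.70, 9.73 and 10.31. All 3 arrays exceeded all 3 SCR arrays, and all stayed below every VHL-/- array. The call was lost without VHL+/+ SCR replicate 1 or VHL+/+ KDM5C shRNA replicate 3 (0.78 each, adjusted p = 0.0513 and 0.0524, limma). Its value with PBRM1 shRNA in VHL+/+ cells was 0.57 (adjusted p = 0.111, limma), and in VHL-/- cells 0.37 with KDM5C shRNA, neither called.

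EPAS1 had 8.80, 9.0 and 9.71 on the VHL-/- SCR arrays, 9.79, 9.89 and 9.97 with PBRM1 shRNA and 9.45, 9.30 and 10.68 with KDM5C shRNA. Every PBRM1 shRNA array exceeded every SCR array. Its changes in VHL-/- cells were 0.71 and 0.64 with PBRM1 and KDM5C shRNA (adjusted p = 0.0642 and 0.105, limma), and in VHL+/+ cells 0.50 and 0.47 (adjusted p = 0.266 and 0.247, limma). None was called, although the change with PBRM1 shRNA in VHL-/- cells was called without VHL-/- PBRM1 shRNA replicate 3 (0.90), VHL-/- KDM5C shRNA replicate 3 (0.71) or VHL+/+ KDM5C shRNA replicate 1 (0.71), with adjusted p from 0.0231 to 0.0311 (limma). ADM and EGLN1 had values below 0 in all 4 comparisons, and none was called. ADM was at -0.32 and -0.29 in VHL-/- and -0.48 and -0.57 in VHL+/+ cells, the last at adjusted p = 0.0558 (limma). NDRG1 and DDIT4 had 0.59 and 0.48 with KDM5C shRNA in VHL-/- cells (adjusted p = 0.0906 and 0.0998, limma), and NDRG1 was called there without VHL-/- KDM5C shRNA replicate 3 (0.78, adjusted p = 0.0319, limma). SLC2A1 stayed between -0.13 and 0.11 and had no comparison past an unadjusted p of 0.05.

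**Figure D3:**
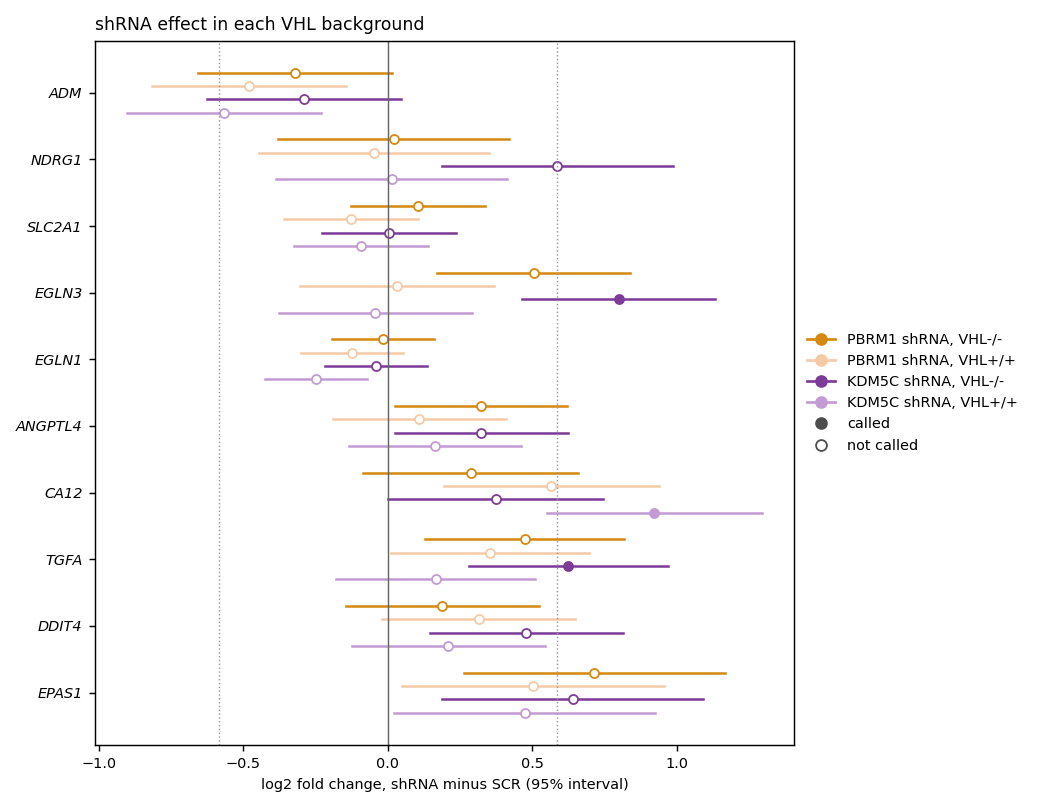
Log2 fold change of PBRM1 shRNA (orange) or KDM5C shRNA (purple) over SCR (horizontal axis) for each gene (vertical axis), with dark colors for VHL-/- and light colors for VHL+/+ cells and 95% intervals from limma. Filled points were called and dotted lines mark a 1.5-fold change. EGLN3 and TGFA with KDM5C shRNA in VHL-/- cells and CA12 with KDM5C shRNA in VHL+/+ cells are filled, and all 4 EPAS1 points lie above 0.

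After these values had been seen, both shRNAs were averaged over both backgrounds against SCR. None of the 10 genes was called at 1.5-fold, where 0.556% of all genes were called lower and 0.654% higher. With no fold threshold 6 passed the adjusted p, where 15.4% of all genes passed in either direction. EPAS1 rose by 0.58 ± 0.13, CA12 by 0.54 ± 0.11, TGFA by 0.40 ± 0.10, EGLN3 by 0.32 ± 0.10 and DDIT4 by 0.30 ± 0.10, while ADM fell by 0.42 ± 0.10 (adjusted p = 0.00574, 0.00259, 0.0106, 0.0318, 0.0475 and 0.00746, limma). EPAS1 lay at the fold threshold and was called at 1.5-fold when 1 of 11 of the 18 arrays was left out (0.59 to 0.63 in these).

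The 9 genes other than EPAS1 moved together across the groups. All 9 had values below 0 in the average VHL effect, so r over the 18 arrays holds that difference again. After the chip term was removed, Pearson's r between 2 of these 9 ran from 0.38 to 0.96 over the 18 arrays, with a median of 0.81 in 36 pairs. The points share the 6 groups, and after the group means were removed r ran from -0.67 to 0.74 with a median of 0.0083. The pairs most alike within groups were SLC2A1 with TGFA (0.74) and EGLN3 with TGFA (0.70), and the least alike of the 36 was TGFA with DDIT4 (-0.67). The 9 pairs with EPAS1 ran from -0.47 to 0.09 over the 18 arrays. Over all 13141 genes, the most alike to ADM was PAG1 (r = 0.96), followed by SLC2A1 and CTHRC1. NDRG1 was most like XAGE1A, CTHRC1 and RNASET2 (0.97 each), SLC2A1 most like CTHRC1, STC1 and ADM (0.97 to 0.96), and EGLN3 most like C1QL1, STC1 and SEMA4B (0.95 to 0.92). CA12 was most like PLIN2, LCP1 and TMEM98 (0.93 to 0.91), ANGPTL4 most like MARCH3, MIR155HG and LOC100216001 (0.93 to 0.91), and TGFA most like MIR155HG, MARCH3 and EGLN3 (0.96 to 0.92). DDIT4 was most like NDRG1, SLC38A5 and WDR54 (0.94 to 0.93), EGLN1 most like SMAD7, ZFP30 and TXNDC11 (0.89 to 0.83), and EPAS1 most like CD24, DPM3 and MUM1 (0.94 to 0.89).

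**Figure D4:**
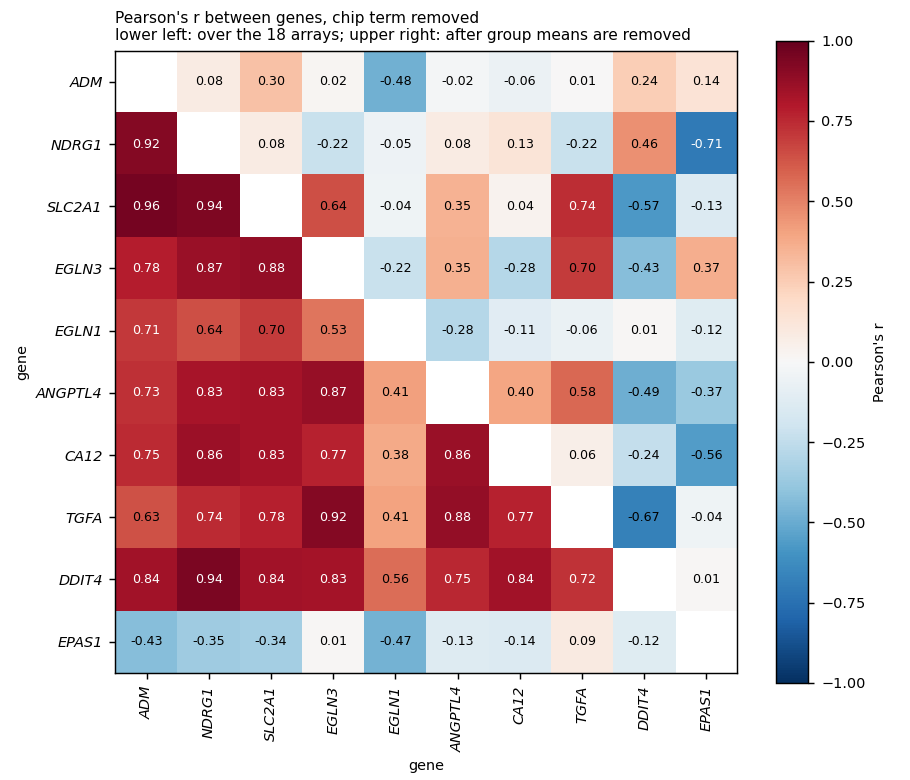
Pearson's r between each pair of the 10 genes (both axes) after the chip term was removed, over the 18 arrays in the lower left and after group means were also removed in the upper right, with the color scale from -1 to 1. The lower left is red (0.38 to 0.96) except in the EPAS1 row (-0.47 to 0.09), and the upper right is mixed.

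The oxygen sensing machinery around these genes held no called gene. Of 15 of its 17 listed genes in the table, among them ARNT, EGLN2, HIF1AN, CUL2, TCEB1 and TCEB2, 0 were called in any comparison. At most 0.921% of all genes were called in a direction in any comparison, so 0 of 15 is near the share of all genes. In the average VHL effect 0 of the 15 passed the adjusted p, where 1603 of the 13141 genes passed it. With no fold threshold, among the VHL comparisons and those of a single shRNA, EP300 passed for VHL with SCR (0.34, adjusted p = 0.0331, limma), and CITED2 and EP300 passed with KDM5C shRNA in VHL+/+ cells (-0.55 and -0.36, adjusted p = 0.0265 and 0.02, limma). Both encode regulators of HIF-driven transcription and were named after their values were seen. EGLN2, the relative of EGLN1 and EGLN3, had -0.067 on the log2 scale in that average (adjusted p = 0.547, limma). Among 54 of 66 other listed HIF target genes in the table, 4 were called lower with VHL in SCR cells (0.685% of all genes), 7 with PBRM1 shRNA (0.51%) and 7 with KDM5C shRNA (0.563%), and 1 was called higher, with PBRM1 shRNA (0.51%). That gene, chosen after its values were seen, was VLDLR, a lipoprotein receptor (0.64, adjusted p = 0.0309, limma), and its call was lost without PBRM1 shRNA replicate 2 or 3 of either background (0.44 to 0.64). In the average 7 were called lower (0.586% of all genes) and none higher, 25 passed the adjusted p in the lower direction (6.17%) and 1 in the higher direction, and the median was -0.16 against 0.0029 over all genes. CCND1, the gene of cyclin D1, fell by 1.63 ± 0.068 in the average (adjusted p = 1.95e-10, limma), the largest change of this list. EDN1, the gene of the vessel-constricting peptide endothelin-1, and BHLHB2, a transcriptional repressor, had -0.97 and -0.65 (adjusted p = 0.0102 and 9.62e-07, limma), both also named after their values were seen. ENO2, a glycolytic enolase, fell by 1.10 and ZNF395 by 0.86 (adjusted p = 5.61e-08 and 0.000143, limma). PLIN2, a lipid droplet coat protein, fell by 0.59 (adjusted p = 2.50e-05, limma) and lay so close to the fold threshold that its call was lost without any 1 of 9 of the 18 arrays (-0.58 to -0.55). Of the glycolytic genes, LDHA, PGK1 and GAPDH had -0.32, -0.15 and 0.037 on the log2 scale, none of them called.

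None of the 10 genes was called with either shRNA in both backgrounds, while CCND1 was called with both in both. In the single shRNA comparisons 0.304% to 0.921% of all genes were called in a direction. The share called in both backgrounds was not counted, so this absence does not set the 10 genes apart from other genes. CCND1 rose by 1.39 and 1.34 in VHL-/- and by 1.37 and 1.30 in VHL+/+ cells with PBRM1 and KDM5C shRNA (adjusted p between 3.16e-06 and 8.83e-06, limma). Other genes of the list were called in either direction with the shRNAs. In VHL-/- cells C7ORF68 and ZNF395 were called higher with both shRNAs (0.60 and 0.87 with PBRM1 shRNA, 0.75 and 0.83 with KDM5C shRNA, on the log2 scale) and EFNA1 lower with PBRM1 shRNA (-0.69). In VHL+/+ cells STC2 was called lower with both (-0.78 and -0.86), and MET and VLDLR lower with KDM5C shRNA (-0.65 and -0.65). These genes were named after their values were seen. The call of C7ORF68 with KDM5C shRNA held with any 1 array left out, and each of the others was lost without any 1 of 2 to 4 of the 6 arrays compared.

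**Figure D5:**
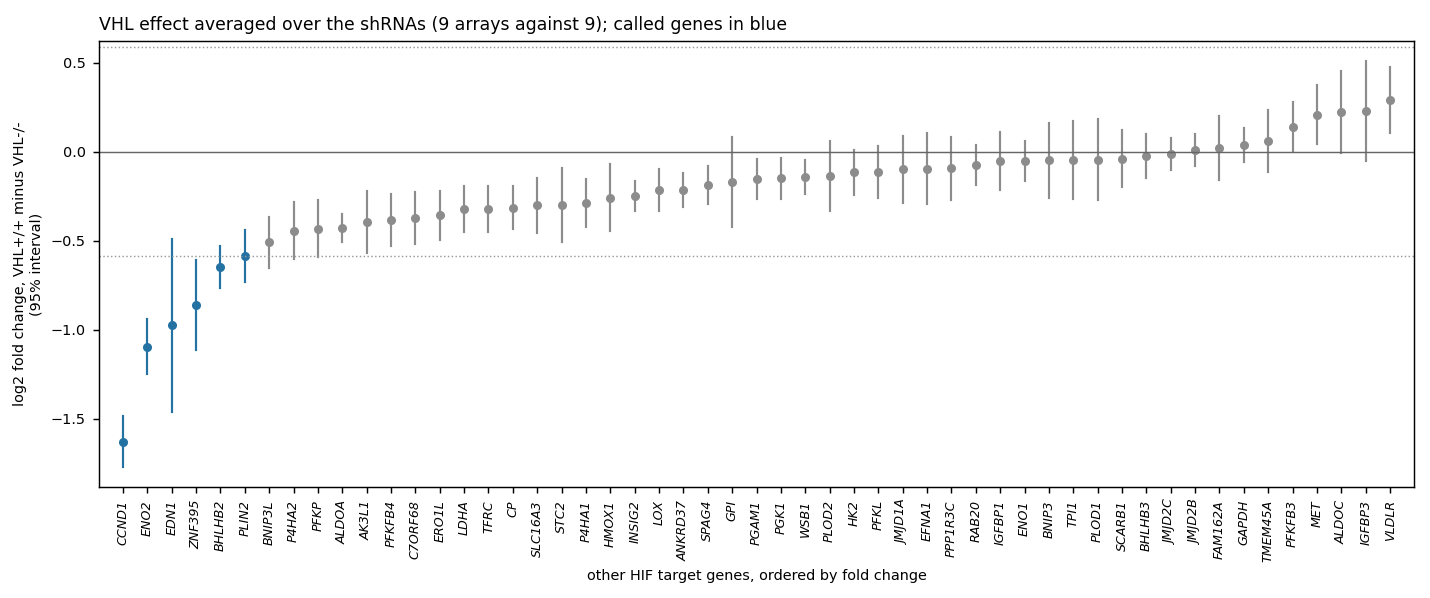
Log2 fold change of VHL+/+ over VHL-/- cells averaged over the 3 shRNAs (vertical axis) for 53 of the 54 other HIF target genes, ordered by that change (horizontal axis), with 95% intervals from limma and dotted lines at 1.5-fold. The 6 called genes drawn, in blue, are all on the lower side, and CCND1 is lowest at -1.63.

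Among 29 of 43 listed relatives, receptors and partners of the 10 genes in the table, 1 was called lower and 1 higher in the average. Of all genes, 0.586% were called lower and 0.342% higher there. SLC2A3, the gene of the glucose transporter GLUT3, fell by 0.78 ± 0.09 (adjusted p = 2.31e-05, limma), alongside its relative SLC2A1. CA2, a carbonic anhydrase of the cytoplasm, rose by 0.75 ± 0.069 (adjusted p = 2.04e-06, limma), opposite to CA12. With KDM5C shRNA in VHL-/- cells SLC2A3 rose by 0.76 (adjusted p = 0.00832, limma), a call lost without VHL-/- SCR replicate 3 (0.61) or VHL-/- KDM5C shRNA replicate 2 (0.58). Of the other relatives, ADM2 had 0.075, the adrenomedullin receptor component RAMP2 -0.021, HBEGF -0.19, NDRG3 0.11, DDIT4L -0.048 and TSC2 0.00049 in the average, and none was called.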

How the data were processed

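RNA from 786-O cells was hybridised to Illumina HumanHT-12 V4 arrays, 3 per group in 6 groups. The authors deposited log2 values, 1 row per gene and 1 column per array. Per their methods these came from GenomeStudio with background correction that kept values positive, quantile normalization, a detection filter and averaging of a gene's probes. Whether batch correction entered these values is not given in the sources used here, and array number limits the precision. The methods apply limma with batch in the model, so limma 3.58.1 in R 4.3.3 was fitted to all 18 arrays with a term per group and per chip (11 residual degrees of freedom), with Benjamini-Hochberg adjustment over the 13141 genes of each of 10 contrasts. Genes with adjusted p under 0.05 and a 1.5-fold change were called. The paper's methods instead select genes for its figures at a change greater than 2-fold, and at least 2-fold is an alternative here. An exact permutation test of 3 against 3 arrays cannot go below p = 0.1, so single genes were tested in the shared fit only. An 11th contrast, both shRNAs averaged against SCR, was chosen after the EPAS1 values were seen. The members and lists were chosen with earlier results of these data known. The rule named all 10 genes, the labelled targets, up to 6 called list genes with the largest change in the VHL comparison with SCR and up to 3 in each other comparison, receptors and relatives whatever their value, and the 3 genes most like each member. Alternatives changed the chip term, arrays fitted, scaling, dim-gene filter, moderation and fold threshold, or left out each array. Single genes that the rule would name are in part not reported here.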

Additional observations from a re-analysis of the deposited data

How the results depend on the processing

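Most values of the 10 genes kept their direction and their side of the threshold. For called VHL effects 735 alternative values did and 41 lost the call, and for called shRNA effects 76 did and 11 lost it. For uncalled VHL effects 367 did, 4 became called and 3 reversed. For uncalled shRNA effects and differences 718 did and 29 became called. Those shRNA effects and differences were counted only where the unadjusted p of the main fit was under 0.05. Most of the alternative values left out 1 array, and in a comparison of 2 groups most of the arrays left out belonged to other groups. Dropping the fold threshold cannot lose a call. The counts of values that kept their side are therefore no measure of how stable a call is. The calls of 5, 7 and 8 genes with SCR, PBRM1 and KDM5C shRNA became 3, 3 and 5 without the chip term, whose removal adds the chip difference to the spread. The calls lost were NDRG1 and DDIT4 under each shRNA, ANGPTL4 with both gene-directed shRNAs and EGLN3 with PBRM1 shRNA. Asking for a fold change of at least 2 left 4 with SCR, 4 with PBRM1 shRNA, 5 with KDM5C shRNA and 5 of 7 in the average, and fitting only the arrays of the comparison left 4 with PBRM1 shRNA, without CA12, DDIT4 and ANGPTL4 (the cause was not tested). Leaving out 1 array gave 5 throughout with SCR, 6 to 8 with PBRM1 shRNA, 6 to 8 with KDM5C shRNA and 6 to 8 in the average. For PBRM1 shRNA in VHL-/- cells the count of 0 became 1, EPAS1, with only the arrays of the comparison (0.71), the dimmest 25% of genes left out (0.71), trend and robust moderation (0.71) or chip 1 alone (0.94), and was 0 to 1 with 1 array left out. For KDM5C shRNA in VHL-/- cells the count of 2 became 0 without the chip term, 4 with only the arrays of the comparison, 0 at 2-fold and 1 to 2 with 1 array left out. In VHL+/+ cells the count of 1 became 0 at 2-fold and 0 to 1 with 1 array left out. Both shRNAs averaged gave 0, but 6 with no fold threshold, 1 on chip 1 alone and 0 to 2 with 1 array left out. No gene was called for a difference of VHL effects under any alternative. EPAS1 reversed in the VHL effect with PBRM1 shRNA without VHL-/- PBRM1 shRNA replicate 3 (-0.025, range -0.025 to 0.27) and in that with KDM5C shRNA without VHL+/+ KDM5C shRNA replicate 1 (-0.032, range -0.032 to 0.49) and on chip 2 alone (-0.49); the cause was not tested. Samples with the same replicate number deviated together at r over 0.1 in 8, 15 and 14 of 15 pairs for replicates 1, 2 and 3, so not in every pair, and the numbers were not taken to pair the samples. Once the chip was removed it was 2 of 15 for replicates 1 and 2 each, while for replicate 3, alone on chip 2, that removal centres the arrays and the check says nothing. With the replicate block in place of the chip term the counts stayed 5, 7, 8 and 7 for the VHL effects and 0, 0, 2 and 1 for the shRNAs. Genes of low signal, such as EGLN3 in VHL+/+ cells, limit what a fall can show.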
